A study of Mus musculus with 16 samples.

Results

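The genes described here are 34 genes of endoplasmic reticulum (ER) stress and the unfolded protein response. They were picked by name for their role in that response, with earlier results of these data known, and all 34 were found among the 17003 genes of the table. All 34 also passed the filter on low values, a mean of at least 0.1 FPKM over all mice (fragments per kilobase of transcript, scaled to the mapped fragments of the library), which 12770 genes passed. The values came from bulk RNA sequencing of the liver of 16 male C57BL/6 mice at 8 weeks of age, fed and kept on normal chow, with 1 library per mouse. Fgl1 encodes fibrinogen-like 1, a protein that hepatocytes secrete. The 8 Fgl1 WT mice were littermates that carried the floxed Fgl1 allele (Fgl1 fl/fl) without Cre. The 8 Fgl1 LKO mice carried the same floxed allele together with Cre under the albumin promoter, which is active in hepatocytes, so that other liver cells kept the gene. Read numbers are not in the table and the depth of each library is unknown. The FPKM of a mouse summed to between 673153 and 786188, and between 14116 and 14407 genes were above 0.

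The ER folds secreted and membrane proteins, and in the liver it carries the heavy output of plasma proteins made by hepatocytes. When unfolded proteins build up, the sensors IRE1, PERK and ATF6 in the ER membrane start the unfolded protein response: IRE1 splices the Xbp1 transcript, ATF6 is cleaved into a transcription factor, and PERK slows translation while the factor ATF4 and its target CHOP are made. Chaperones, oxidoreductases and the machinery that removes misfolded proteins are then made in larger amounts, and liver is known to use this response after meals and in fatty liver.

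Fgl1 itself was read first, as a check of the labels. In the WT mice Fgl1 lay between 158 and 1331 FPKM with a median of 312, and in the LKO mice between 13.2 and 90.0 FPKM with a median of 50.3. Every LKO mouse was below every WT mouse, so the labels and the transcript matched, and some Fgl1 signal was left in each LKO liver. The paper states that 1 exon of Fgl1 is excised. FPKM of the whole gene do not separate a transcript without that exon from a full one. The log2 fold change of Fgl1, LKO minus WT and taken on log2(FPKM + 1) as for all fold changes here, was -3.11 (SE 0.49, n = 8 per genotype). Its adjusted p was 0.0725 by limma with Benjamini-Hochberg adjustment over the 12770 genes, above the threshold of 0.05 used throughout. Its exact permutation p was 0.000155 (two-sided), the smallest that 8 against 8 mice can give, and after adjustment 0.563. With a term for the run of mouse numbers the limma adjusted p of Fgl1 was 0.025 (log2 fold change -3.53), without the run of mice 36 to 38 it was 0.0452 (-3.71), and with the replicate number as a block it was 0.0197 (-3.11). It was 0.223 without the filter on low values and 0.117 with median-ratio scaling. With single mice left out it stayed above 0.05, for example 0.0525 without WT replicate 3 and 0.2 without WT replicate 8. The runs are stretches of neighbouring mouse numbers in the column names. The labels do not say what they mark, and 1 of the 4 runs, mice 36 to 38, held WT mice only.

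The liver label was checked against cell markers. Alb, the albumin gene, was the most abundant of 8 hepatocyte markers with a mean of 41750 FPKM, and the 8 summed to between 58730 FPKM in LKO replicate 5 and 98600 FPKM in WT replicate 1. Of 16 listed pancreatic acinar markers 12 were in the table, and 8 of them (Cpa1, Cpb1, Pnlip, Cel, Try4, Try5, Prss2 and Clps) were at 0 in all mice. Cela1 (mean 15.3 FPKM) and Cela2a passed the filter, and the 12 summed to between 11.5 and 28.2 FPKM. Plasma cells and B cells are rich in these same chaperones, and 9 of their 12 listed markers were in the table. These 9 summed to at most 3.48 FPKM in any mouse, and 5 passed the filter. In bulk liver, fewer cells of a type and less RNA per cell cannot be told apart, and this holds for every level below.

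Promoters are shown as description, and their part in the levels was not tested. The 300 bases around each start (250 before, 50 after) were available for 31 of the 34 genes from RefSeq (GRCm38.p6), and not for Manf, Hyou1 and Atf6. Both strands were searched for 4 motifs. The ER stress response element ERSE, bound by ATF6 and XBP1 together with NF-Y, was searched as CCAAT, any 9 bases, CCACG. Of the 31 genes 9 held it, against 0.119% of all 32851 promoters (39 promoters). The Hspa5 promoter is given from base -250 to base -1 (plus strand, chr2:34771840-34772089), with the ERSE in capitals.
Hspa5: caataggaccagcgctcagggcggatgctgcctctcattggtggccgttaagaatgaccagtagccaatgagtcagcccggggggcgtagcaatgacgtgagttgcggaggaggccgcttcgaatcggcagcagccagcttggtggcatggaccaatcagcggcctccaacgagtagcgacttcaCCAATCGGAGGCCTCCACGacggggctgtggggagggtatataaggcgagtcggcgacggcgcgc
For the other 8 genes only the ERSE and 12 bases on each side are shown, read in the direction of the gene. Capitals again mark the ERSE, and a run that starts with CGTGG and ends with ATTGG is the element on the opposite strand. Hsp90b1 held 2 elements and is shown across both. The regions are chr8:84847063-84847105 (minus strand) for Calr, chr10:75893230-75893272 (plus) for Derl3, chr10:86705521-86705668 (minus) for Hsp90b1, chr11:50325788-50325830 (minus) for Canx, chr12:17266479-17266521 (plus) for Pdia6, chr14:118937815-118937857 (plus) for Dnajc3, chr15:88819508-88819550 (plus) for Creld2 and chr19:6046520-6046562 (plus) for Syvn1.
Calr: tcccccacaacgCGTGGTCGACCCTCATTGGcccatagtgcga
Derl3: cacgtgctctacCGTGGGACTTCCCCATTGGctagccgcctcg
Hsp90b1: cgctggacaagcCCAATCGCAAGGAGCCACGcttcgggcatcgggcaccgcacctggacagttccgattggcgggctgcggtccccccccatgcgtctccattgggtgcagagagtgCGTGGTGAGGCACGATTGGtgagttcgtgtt
Canx: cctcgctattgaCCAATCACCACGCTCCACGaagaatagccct
Pdia6: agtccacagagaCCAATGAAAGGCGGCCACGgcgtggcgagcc
Dnajc3: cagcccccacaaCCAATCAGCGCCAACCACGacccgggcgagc
Creld2: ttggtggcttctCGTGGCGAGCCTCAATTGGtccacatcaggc
Syvn1: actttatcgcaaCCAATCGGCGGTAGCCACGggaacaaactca
The shorter element ERSE-II was searched as ATTGG, any base, CCACG, and was held by Herpud1 and Dnajb11, 2 of 31 genes against 0.0365% of all promoters. In Herpud1 (plus strand, chr8:94386365-94386399) it is shown in capitals with the same 12 bases on each side.
Herpud1: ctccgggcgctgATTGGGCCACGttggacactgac
The unfolded protein response element UPRE, TGACGTGG, was in 0 of the 31 promoters and in 0.676% of all. The ATF4-CHOP element TGATGCAAT was likewise in 0 of 31 and in 0.192% of all, or 0.965% with any base in its sixth place. No promoter of these genes held both ERSE and ERSE-II. A match describes the letters in this window only. The genes were picked for their role in the response to ER stress, so the shares of ERSE and ERSE-II are no independent comparison.

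In the genome annotation of GRCm39 the 34 genes were spread over 14 chromosomes. Hspa5 lies at chr2:34661982-34668880 (plus strand), Creld2 at chr15:88703795-88710890 (plus), Ern1 at chr11:106283818-106378686 (minus) and Ddit3 at chr10:127126698-127129622 (plus). Exon bases were shared with another annotated gene for 20 of the 34, and for 8 that gene was itself in the table. The 8 are Hspa5 (with Rabepk), Ddit3 (with Mars1), Pdia3, Pdia6, Manf, Syvn1, Xbp1 and Ppp1r15a. The sources used here do not say whether the counting used strand, so reads of such overlapping genes may have been split between them.

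Between genotypes, most of the 34 genes had a somewhat higher mean level in LKO liver, and none passed the test. By limma 0 of 34 members and 0 of 12770 genes (0%) had an adjusted p under 0.05. At an unadjusted p under 0.05 limma gave 1 member, Ern1, and 895 genes (7.01%). The exact permutation test also called 0 members and 0 genes after adjustment, with 1 member (Ern1) and 902 genes at an unadjusted p under 0.05, and the exact rank-sum test called 0 and 0, with 2 members (Ern1 and Sesn2) and 840 genes. In both tests the smallest possible p is 0.000155. Fgl1 lay at it and had an exact permutation adjusted p of 0.563, so an adjusted call was out of reach. Their 0 calls therefore decide nothing about the members. The log2 fold change was above 0 for 32 of 34 members, against 55.8% of all genes, and its median was 0.19 over the members and 0.01 over all genes. The exceptions were Atf4 (-0.07) and Selenos (-0.05). Other lists leaned the same way, with 15 of 16 heat shock genes (median 0.27), 8 of 8 Kupffer cell and macrophage markers (0.26) and 5 of 5 cholangiocyte markers (0.22) above 0. There were also 18 of 20 other sensors (0.08), 17 of 21 other degradation genes (0.05), 16 of 21 in translocation (0.06), 24 of 32 other targets of ATF4 and CHOP (0.08), 14 of 21 in transport from ER to Golgi (0.08), 14 of 24 in ER folding and redox (0.03) and 3 of 8 hepatocyte markers (-0.02). No member had groups without overlap, which 2 genes (0.0157%) had: Fgl1, and Fitm2, named after its values were seen, with 6.90 to 11.9 FPKM in WT and 12.4 to 19.9 FPKM in LKO. The number of members with an unadjusted p under 0.05 moved with single mice, and so did that of all genes. It was 11 without LKO replicate 3 (1111 genes), 9 without LKO replicate 6 (1235), 4 without LKO replicate 4 (1021), 4 without WT replicate 5 (1198), 3 without WT replicate 4 (928), 2 without WT replicate 2 (796) and 2 without LKO replicate 5 (908). It was 2 with the run term (1032 genes), 2 without the run of mice 36 to 38 (813) and 4 with the replicate block (925).

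**Figure D1:**
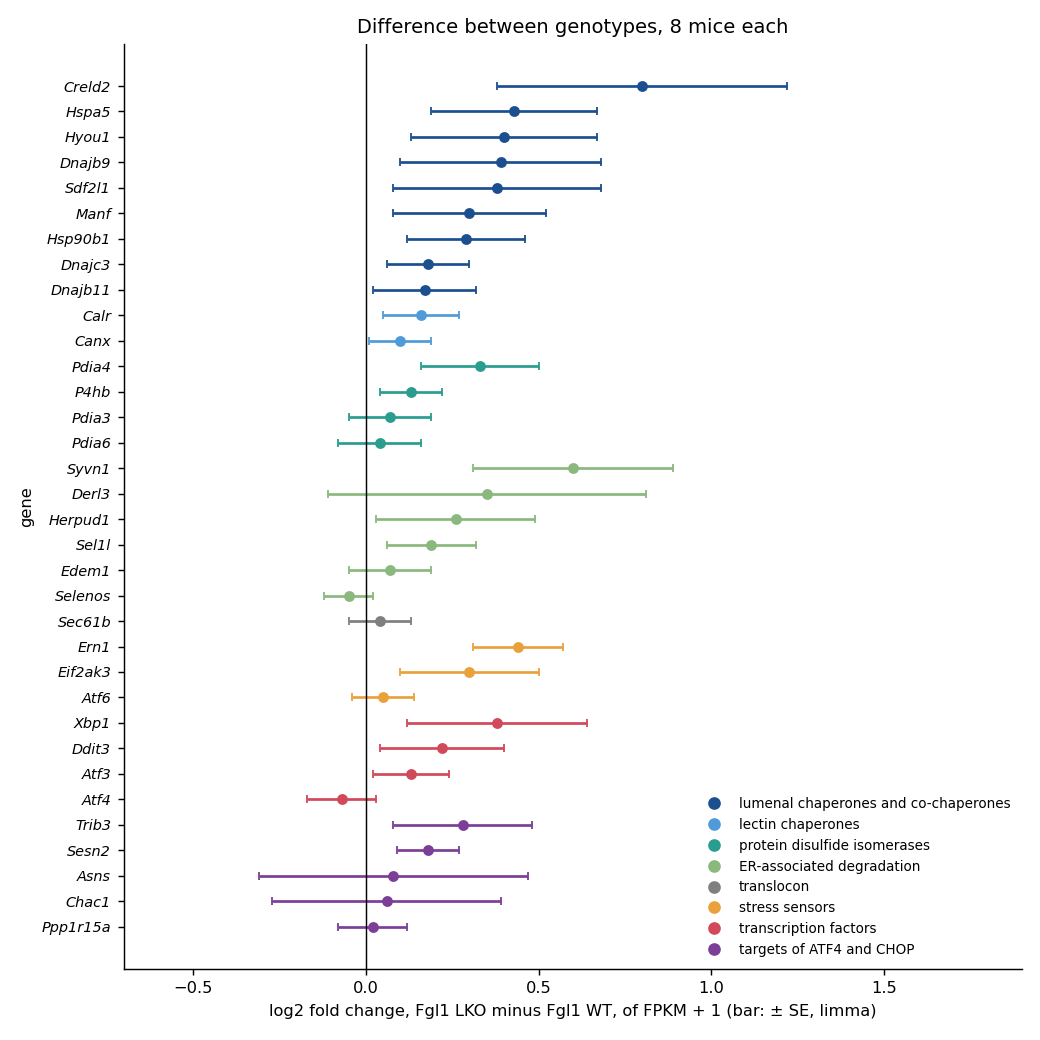
Log2 fold change of each of the 34 genes, Fgl1 LKO minus Fgl1 WT on log2(FPKM + 1), with bars of ± SE from limma (8 mice per genotype) and colours by role. 32 of the 34 points lie above 0, from Creld2 at 0.80 down to Atf4 at -0.07, and 0 passed the adjusted test.

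The lumenal chaperones and their co-chaperones are 9 of the genes, and their log2 fold changes ran from 0.17 to 0.80 with a median of 0.38. Hspa5 encodes BiP, the ER's main Hsp70 and the protein that holds the sensors inactive. Its level was 319 to 503 FPKM in WT mice (median 417) and 257 to 1060 FPKM in LKO mice (median 647). Of the LKO mice 5 lay above the highest WT mouse and 2 below the lowest, so the groups overlapped and the LKO values reached past the WT range at both ends. Hspa5 had a log2 fold change of 0.43 (SE 0.24, limma adjusted p = 0.707, exact permutation p = 0.125). Creld2, a disulfide isomerase-like factor that is secreted upon ER stress, was at 16.7 to 55.5 FPKM in WT (median 32.5) and 16.4 to 182 FPKM in LKO (median 64.1). LKO replicate 8 held the highest value, 4 LKO mice were above all WT mice, and LKO replicate 6 was below all of them. At 0.80, the log2 fold change of Creld2 was the largest of the 34 (SE 0.42, limma adjusted p = 0.700, exact permutation p = 0.107). The other members of the group are Hsp90b1, the ER's Hsp90, Hyou1, which exchanges the nucleotide of BiP, the J-domain partners Dnajb9, Dnajb11 and Dnajc3, Sdf2l1, and the secreted factor Manf. All of them had overlapping groups and mean levels between 38.1 FPKM (Dnajb9) and 337 FPKM (Hsp90b1).

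Averaged over these 9 genes, the deviation from the mean of the 16 mice (log2 units) ran from -0.54 to 0.36 in WT and from -0.69 to 0.79 in LKO. The LKO mice stood on either side of the WT mice. Replicates 8 (0.79), 2 (0.71), 5 (0.65) and 1 (0.61) lay above every WT mouse and replicates 3 (-0.69) and 6 (-0.63) below every WT mouse. LKO replicates 7 (0.25) and 4 (-0.20) fell inside the WT range.

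**Figure D2:**
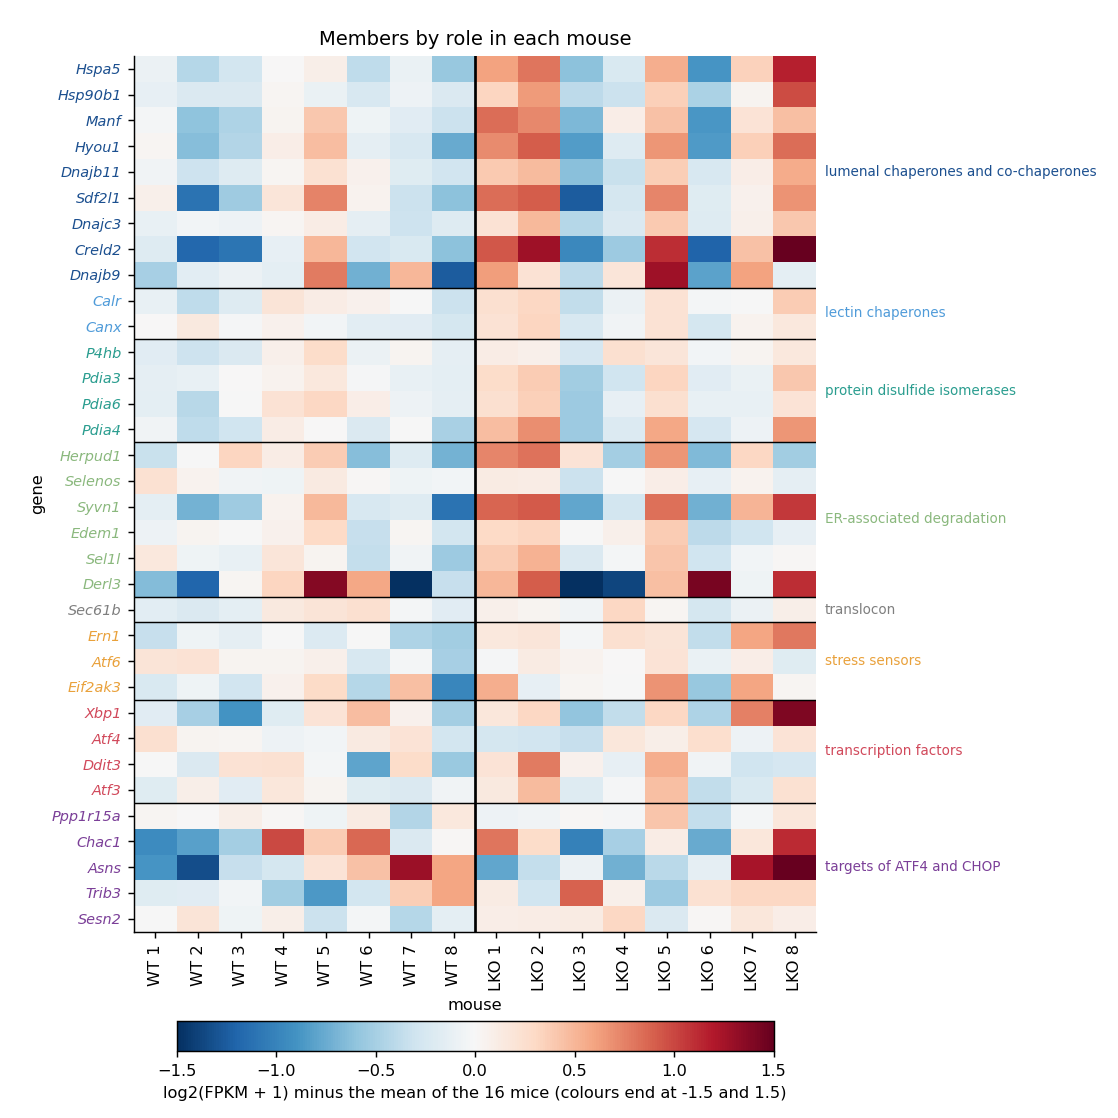
Heat map of log2(FPKM + 1) minus the mean of the 16 mice for each of the 34 genes, sorted by role, with Fgl1 WT on the left and Fgl1 LKO on the right of the vertical line. The chaperones of LKO replicates 1, 2, 5 and 8 are high and those of LKO replicates 3 and 6 low, while the targets of ATF4 and CHOP show other orders.

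The lectin chaperones Calr and Canx hold glycoproteins while they fold. Calr had the highest mean level of all 34 genes per transcript length, 572 FPKM, with 432 to 647 FPKM in WT (median 544) and 436 to 736 FPKM in LKO (median 608). The groups overlapped, with 4 LKO mice above the highest WT mouse. Its log2 fold change was 0.16 (SE 0.11, limma adjusted p = 0.752, exact permutation p = 0.181), and it was 0.06 with the run term and 0.07 without the run of mice 36 to 38. That of Canx was 0.10.

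Among the protein disulfide isomerases, which form and rearrange disulfide bonds, P4hb was the most abundant per length, at 402 to 604 FPKM in WT (median 463) and 421 to 590 FPKM in LKO (median 534). No LKO mouse was above the highest WT mouse, and the log2 fold change of P4hb was 0.13 (SE 0.09, limma adjusted p = 0.736, exact permutation p = 0.143), or 0.04 with the run term and 0.03 without the run of mice 36 to 38. Pdia4 had the largest log2 fold change of the group. Its level was 92.0 to 140 FPKM in WT (median 118) and 88.0 to 211 FPKM in LKO (median 150). LKO replicates 1, 2, 5 and 8 were above all WT mice and LKO replicate 3 was below them all. Pdia4 had a log2 fold change of 0.33 (SE 0.17, limma adjusted p = 0.700, exact permutation p = 0.0959). Pdia3 and Pdia6 had log2 fold changes of 0.07 and 0.04.

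ER-associated degradation pulls misfolded proteins back to the cytosol for the proteasome, and 6 of the genes serve it. Herpud1, a scaffold of the retrotranslocation complex, was the most abundant per length, at 135 to 289 FPKM in WT (median 207) and 139 to 389 FPKM in LKO (median 264). LKO replicates 1, 2 and 5 were above the highest WT mouse while LKO replicate 8, the highest for Hspa5, was low at 154 FPKM. Herpud1 had a log2 fold change of 0.26 (SE 0.23, limma adjusted p = 0.795, exact permutation p = 0.325), or 0.17 without LKO replicate 1 and 0.16 without LKO replicate 2. Syvn1, the ubiquitin ligase HRD1, was at 18.4 to 57.7 FPKM in WT (median 34.9) and 23.4 to 86.1 FPKM in LKO (median 65.9). LKO replicates 1, 2, 5, 7 and 8 were above the highest WT mouse, the same as for Hspa5, and the other 3 lay inside the WT range. Syvn1 had a log2 fold change of 0.60 (SE 0.29, limma adjusted p = 0.696, exact permutation p = 0.0836). Sel1l, the partner of HRD1, Edem1, a mannosidase-like protein that marks glycoproteins for removal, Derl3 and Selenos had log2 fold changes from -0.05 (Selenos) to 0.35 (Derl3). Sec61b, a subunit of the translocon through which new proteins enter the ER, was at 130 to 178 FPKM in WT (median 143) and 126 to 188 FPKM in LKO (median 155). The groups of Sec61b overlapped almost fully, at a log2 fold change of 0.04 (SE 0.09, limma adjusted p = 0.936, exact permutation p = 0.685), which was -0.08 with the run term and -0.06 without the run of mice 36 to 38.

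Ern1, which encodes the sensor IRE1, had the smallest limma p of the 34 genes. Its level was 11.8 to 17.4 FPKM in WT (median 15.4) and 13.3 to 31.0 FPKM in LKO (median 20.0). Of the LKO mice 6 were above the highest WT mouse, and LKO replicates 3 and 6 lay inside the WT range. The log2 fold change of Ern1 was 0.44 (SE 0.13) with a limma adjusted p of 0.696, an exact permutation p of 0.00824 and an exact permutation adjusted p of 0.615. The gap was widest in the run of mice 69 to 72, where 2 LKO mice had 26.9 and 31.0 FPKM and 2 WT mice 11.8 and 12.4 FPKM. In the run of mice 60 to 64 the 3 LKO mice had 13.3 to 20.7 FPKM and the 2 WT mice 15.0 and 17.3 FPKM, and in the run of mice 48 to 55 the 3 LKO mice had 17.0 to 19.9 FPKM and the only WT mouse 17.4 FPKM. Eif2ak3, the gene of PERK, and Atf6 had log2 fold changes of 0.30 and 0.05.

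Of the 4 transcription factors 3 had a log2 fold change above 0, and that of Atf4 was slightly below 0. Xbp1, whose spliced form is the factor made by IRE1, was at 62.0 to 161 FPKM in WT (median 103) and 76.9 to 309 FPKM in LKO (median 138). LKO replicates 7 and 8 were above the highest WT mouse. The log2 fold change of Xbp1 was 0.38 (SE 0.26, limma adjusted p = 0.743, exact permutation p = 0.205). It was 0.21 without LKO replicate 8, 0.27 with the run term and 0.18 without the run of mice 36 to 38, and FPKM of the whole gene do not separate the spliced from the unspliced form. Atf4 was at 56.8 to 81.9 FPKM in WT (median 70.6) and 54.3 to 82.2 FPKM in LKO (median 69.2). Both groups covered nearly the same range, and the log2 fold change of Atf4 was -0.07 (SE 0.10, limma adjusted p = 0.887, exact permutation p = 0.529), or 0.02 with the run term and from -0.11 to -0.02 when each mouse was left out. Ddit3, which encodes CHOP, the factor tied to cell death under lasting stress, was at 3.07 to 7.53 FPKM in WT (median 5.96) and 4.74 to 11.1 FPKM in LKO (median 6.07). Only LKO replicates 2 and 5 were above the highest WT mouse, and the log2 fold change of Ddit3 was 0.22 (SE 0.18, limma adjusted p = 0.784, exact permutation p = 0.277), or 0.12 without WT replicate 6 and 0.12 without LKO replicate 2. Atf3 was the least abundant of the 34 genes, with a mean of 0.699 FPKM and a log2 fold change of 0.13.

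The 5 targets of ATF4 and CHOP were all low, with means from 2.53 FPKM (Sesn2) to 6.00 FPKM (Ppp1r15a), and log2(FPKM + 1) understates differences at such levels. Chac1, which degrades glutathione, was at 1.49 to 8.55 FPKM in WT (median 3.50) and 1.37 to 9.45 FPKM in LKO (median 4.28). The ranges nearly coincided. The log2 fold change of Chac1 was 0.06 (SE 0.33, limma adjusted p = 0.975, exact permutation p = 0.879), and it was -0.40 with the run term and -0.38 without the run of mice 36 to 38, whose 3 WT mice were at 1.49, 1.73 and 2.38 FPKM. Leaving out single mice also turned its sign, to -0.08 without WT replicate 1, -0.06 without WT replicate 2, -0.01 without WT replicate 3, -0.06 without LKO replicate 1 and -0.10 without LKO replicate 8. Trib3, a pseudokinase that dampens the response, was at 1.12 to 4.80 FPKM in WT (median 2.42) and 1.65 to 6.14 FPKM in LKO (median 3.36). LKO replicate 3, the lowest of all mice for Pdia4 and Dnajb11, had the highest Trib3. Trib3 had a log2 fold change of 0.28 (SE 0.20, limma adjusted p = 0.767, exact permutation p = 0.238), or 0.17 without WT replicate 5 and 0.17 without LKO replicate 3. Sesn2, a sestrin that restrains mTORC1, was at 1.61 to 3.02 FPKM in WT (median 2.40) and 2.01 to 3.33 FPKM in LKO (median 2.77). LKO replicate 4 alone was above the WT range, and the log2 fold change of Sesn2 was 0.18 (SE 0.09, limma adjusted p = 0.700, exact permutation p = 0.0726). Ppp1r15a, the phosphatase subunit GADD34 that restores translation, was at 4.10 to 6.73 FPKM in WT (median 6.07) and 4.42 to 8.29 FPKM in LKO (median 5.83). Its groups overlapped, and its log2 fold change was 0.02 (SE 0.10, limma adjusted p = 0.966, exact permutation p = 0.852). It was -0.04 without WT replicate 7, -0.04 without LKO replicate 5 and 0.00 on the negative side without LKO replicate 8. Asns, the asparagine synthetase, had a log2 fold change of 0.08.

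**Figure D3:**
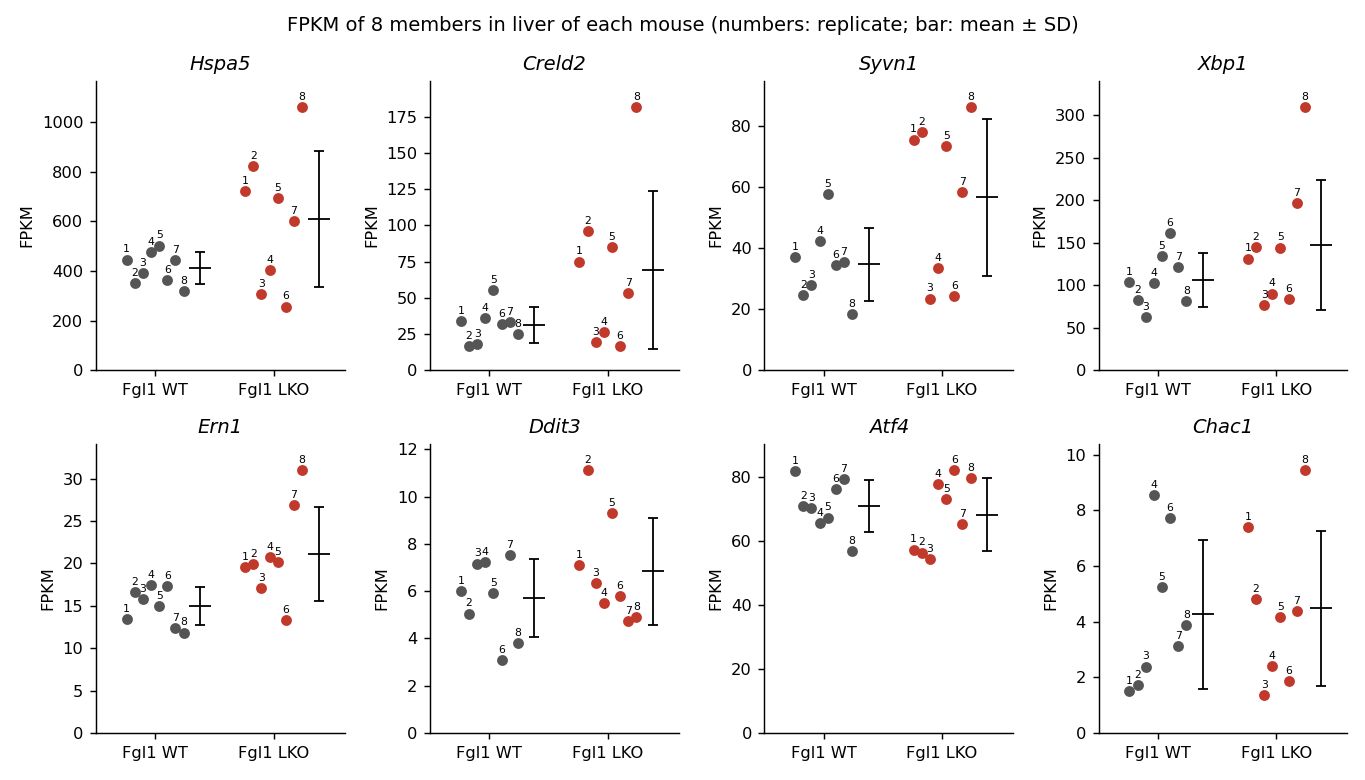
FPKM of Hspa5, Creld2, Syvn1, Xbp1, Ern1, Ddit3, Atf4 and Chac1 in every mouse, by genotype, with the replicate number at each point and mean ± SD (8 mice) beside the points. The LKO points of Hspa5 reach from 257 to 1060 FPKM around WT points of 319 to 503 FPKM, while those of Atf4 cover the WT range.

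The spread between mice of the same genotype was wide for these genes. The residual SD of log2(FPKM + 1) within genotypes had a median at the 91.3 percentile of all genes. The mean level of the members had a median at the 90.1 percentile, and log2(FPKM + 1) understates differences at low levels. The part of level in the percentile of the SD was not tested. The SD was larger in LKO than in WT for 27 of 34 members, against 50.7% of all genes, and this comparison of spreads is a description that was not tested. In the other lists the SD was larger in LKO for 13 of 16 heat shock genes, 21 of 32 other targets of ATF4 and CHOP, 13 of 20 other sensors, 12 of 24 in ER folding and redox, 9 of 21 other degradation genes, 8 of 21 in translocation, 4 of 21 in transport from ER to Golgi and 0 of 11 acute phase genes. The median SD of the members was 0.23 in WT and 0.41 in LKO, while over all genes it was 0.17 in both. For Hsp90b1 the SD was 0.10 in WT and 0.52 in LKO, for Hspa5 0.23 and 0.72, and for Creld2 0.55 and 1.20. All 9 lumenal chaperones and co-chaperones had the larger SD in LKO. Of the sensors only Ern1 did, and Atf6 had an SD of 0.24 in WT and 0.12 in LKO.

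**Figure D4:**
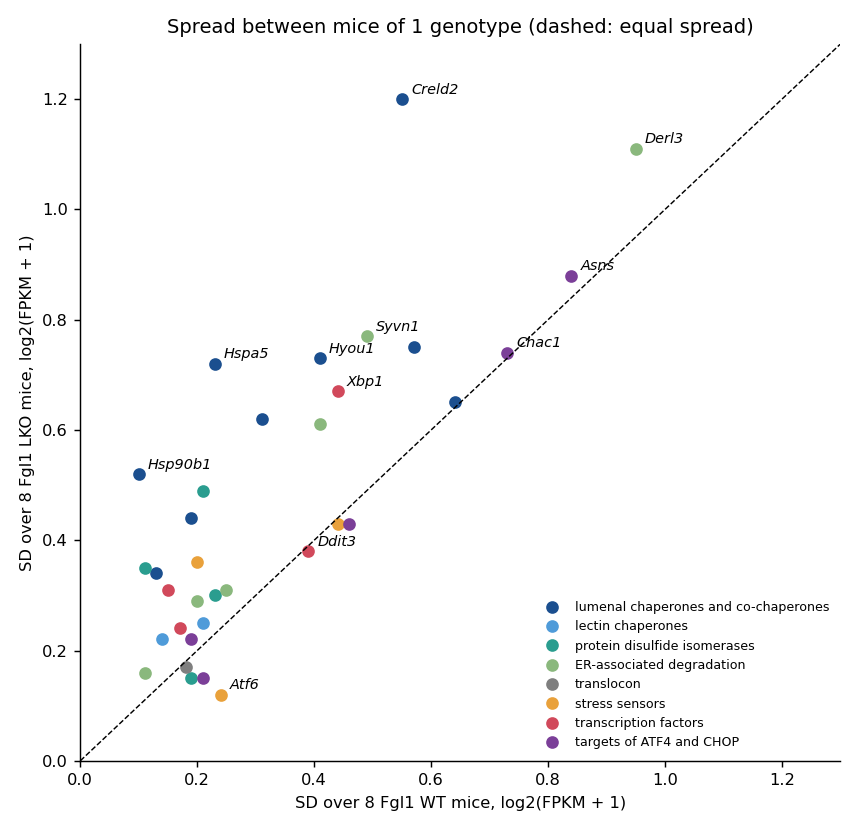
SD of log2(FPKM + 1) over the 8 Fgl1 LKO mice against that over the 8 Fgl1 WT mice for each of the 34 genes, coloured by role, with a dashed line of equal spread. 27 points lie above the line, with Creld2 at 0.55 and 1.20 and Hspa5 at 0.23 and 0.72.

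Across the 16 mice the chaperones moved together. Over all pairs of lumenal chaperones and co-chaperones the median Pearson r was 0.88 (36 pairs, from 0.41 to 0.96). It was 0.79 between them and the lectin chaperones, 0.80 with the disulfide isomerases and 0.55 with the degradation genes. Between the lumenal chaperones and the targets of ATF4 and CHOP the median r was 0.13, and among the 5 targets themselves 0.03. Over all 561 pairs of the 34 genes it was 0.44, and over all pairs of the 12770 genes 0.06. These pair values share the same mice and are given as description.

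To read the members against all other genes, Hspa5 was correlated with each of the 12769 other genes over the 16 mice, with permutation tests (100000 resamples, two-sided) adjusted over these 12769 relations. Of the 33 other members 17 had a positive Pearson r with an adjusted p under 0.05, against 3.77% of all genes, and 0 had a negative one, against 5.70% of all genes (728 genes). Trib3 and Atf4 were the only members with r below 0, and at an unadjusted p under 0.05 the count of negative members was 0 as well, against 15.9% of all genes. By Spearman rho 14 members passed (2.09% of genes). Without the 2 mice farthest from the median of Hspa5, LKO replicates 2 and 8, 8 members passed (0.344% of genes). Centred values were read by a t test with the degrees of freedom left, chosen after seeing the data, since permuting them takes the mice as free and gives p that are too small. After centring on genotype (13 degrees of freedom) 13 members passed (1.39% of genes). The runs hold 3 to 5 mice each, too few for a correlation within a run. After centring on genotype and run (10 degrees of freedom) 18 members passed with r above 0 (2.94% of genes), and 1, Trib3, with r below 0 (5.37% of genes).

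The 4 genes with the highest r with Hspa5 among all 12769 were members: Creld2, Hsp90b1, Hyou1 and Syvn1. Members made up 5 of the first 10 genes, 9 of the first 50 and 11 of the first 100. Creld2 followed Hspa5 with r = 0.96 and rho = 0.96. Both permutation p were 1e-05, the smallest that these permutations can give, and the adjusted p were 0.00284 for r and 0.00412 for rho. Without LKO replicates 2 and 8 the r of Creld2 was 0.92, and centred on genotype and run it was 0.97. Syvn1 had r = 0.95 and rho = 0.98 with the same p values, and r = 0.94 without these mice. Pdia4 had r = 0.92 and rho = 0.92, also with permutation p of 1e-05, and r = 0.87 without them. Within genotypes r was 0.73 over the 8 WT and 0.99 over the 8 LKO mice for Creld2, and 0.92 and 0.98 for Syvn1. Among the other members that passed, r was far lower in WT than in LKO for Ern1 (0.12 and 0.77), Atf3 (0.16 and 0.78), Canx (0.32 and 0.92), Xbp1 (0.38 and 0.87) and Dnajc3 (0.44 and 0.91), and higher in WT for Sel1l (0.84 and 0.73) and Pdia4 (0.95 and 0.90). The others lay between 0.62 and 0.89 in WT and between 0.80 and 0.98 in LKO. These values were not tested.

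By role, 7 of the 8 other lumenal chaperones passed, all but Dnajb9 (r = 0.60, adjusted p = 0.0879), as did both lectin chaperones and 3 of 4 disulfide isomerases. Of these Pdia6 was near the threshold (r = 0.69, adjusted p = 0.0380), with an adjusted p of 0.0511 by rho, 0.218 without LKO replicates 2 and 8, 0.0517 centred on genotype and above 0.05 when any 1 of 10 mice was left out. Calr had r = 0.81 and rho = 0.84 (permutation p = 7e-05 and 6e-05, adjusted p = 0.00667 and 0.00995), and 0.70 without LKO replicates 2 and 8, where its adjusted p was 0.158. Without these mice Canx (r = 0.80, adjusted p = 0.0762), Dnajc3 (0.81, 0.0699), Sdf2l1 (0.76, 0.106) and Pdia3 (0.73, 0.124) did not pass either. Hsp90b1, Hyou1, Creld2, Manf, Dnajb11 and Pdia4 still passed there. P4hb did not pass, at r = 0.60 and rho = 0.69 (permutation p = 0.0151 and 0.00415, adjusted p = 0.0929 and 0.0625), but it did centred on genotype and run (r = 0.80, adjusted p = 0.0347 by the t test). Of the degradation genes Syvn1 and Sel1l passed, but Sel1l did not when centred on genotype (r = 0.70, adjusted p = 0.0594 by the t test). Herpud1 had r = 0.50 (adjusted p = 0.185), which was 0.80 without LKO replicate 8 and 0.75 without the 2 farthest mice. Xbp1 had r = 0.79 and rho = 0.76 (permutation p = 0.00028 and 0.00108, adjusted p = 0.0122 and 0.0328), and its r of 0.66 without the 2 farthest mice had an adjusted p of 0.193, with fewer mice tested. Ern1 had r = 0.72 and rho = 0.64 (permutation p = 0.00152 and 0.00834, adjusted p = 0.0274 and 0.0871). Its r was 0.57 without these 2 mice (adjusted p = 0.298) and 0.66 centred on genotype (adjusted p = 0.0837 by the t test). Atf3 also passed, at r = 0.72 (adjusted p = 0.0273), but not by rho (0.087), without the 2 farthest mice (r = 0.62, adjusted p = 0.231) or centred on genotype (0.0623 by the t test). Centred on genotype and run, Atf3 passed narrowly (r = 0.77, adjusted p = 0.0470 by the t test).

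Of the 5 targets of ATF4 and CHOP none passed with Hspa5 over the mice as they are (0 of 5 by r and 0 of 5 by rho, in the same permutation tests). By r, 3.77% of all genes passed above 0 and 5.70% below 0. At an unadjusted p under 0.05 there were 0 targets with r below 0 (15.9% of all genes) and 1 with r above 0 (11.4%), Chac1. It had r = 0.64 and rho = 0.66 (permutation p = 0.00833 and 0.00682, adjusted p = 0.0675 and 0.0794), and its r was 0.93 over the 8 LKO mice and 0.20 over the 8 WT mice, a difference that was not tested. Centred on genotype and run, Chac1 had r = 0.80 (adjusted p = 0.0342 by the t test). Trib3 had r = -0.26 and rho = -0.36 (permutation p = 0.327 and 0.168), and r = -0.87 (adjusted p = 0.0135 by the t test) once centred on genotype and run, while r was -0.13 without LKO replicate 3 and -0.44 without LKO replicate 8. Atf4 had r = -0.08 and rho = -0.09 (permutation p = 0.758 and 0.748), and 0.19 centred on genotype and run. Ddit3 had r = 0.40 and rho = 0.34 (permutation p = 0.125 and 0.197), with r at 0.25 without LKO replicate 2 and 0.60 without LKO replicate 8. Ppp1r15a had r = 0.31, Sesn2 r = 0.05 and Sec61b r = 0.38, none with an adjusted p under 0.05. Without LKO replicate 6 the r of Ppp1r15a was 0.14 and that of Sec61b 0.25. The r of Sesn2 was -0.13 without the 2 farthest mice, -0.16 centred on genotype and -0.21 centred on genotype and run.

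**Figure D5:**
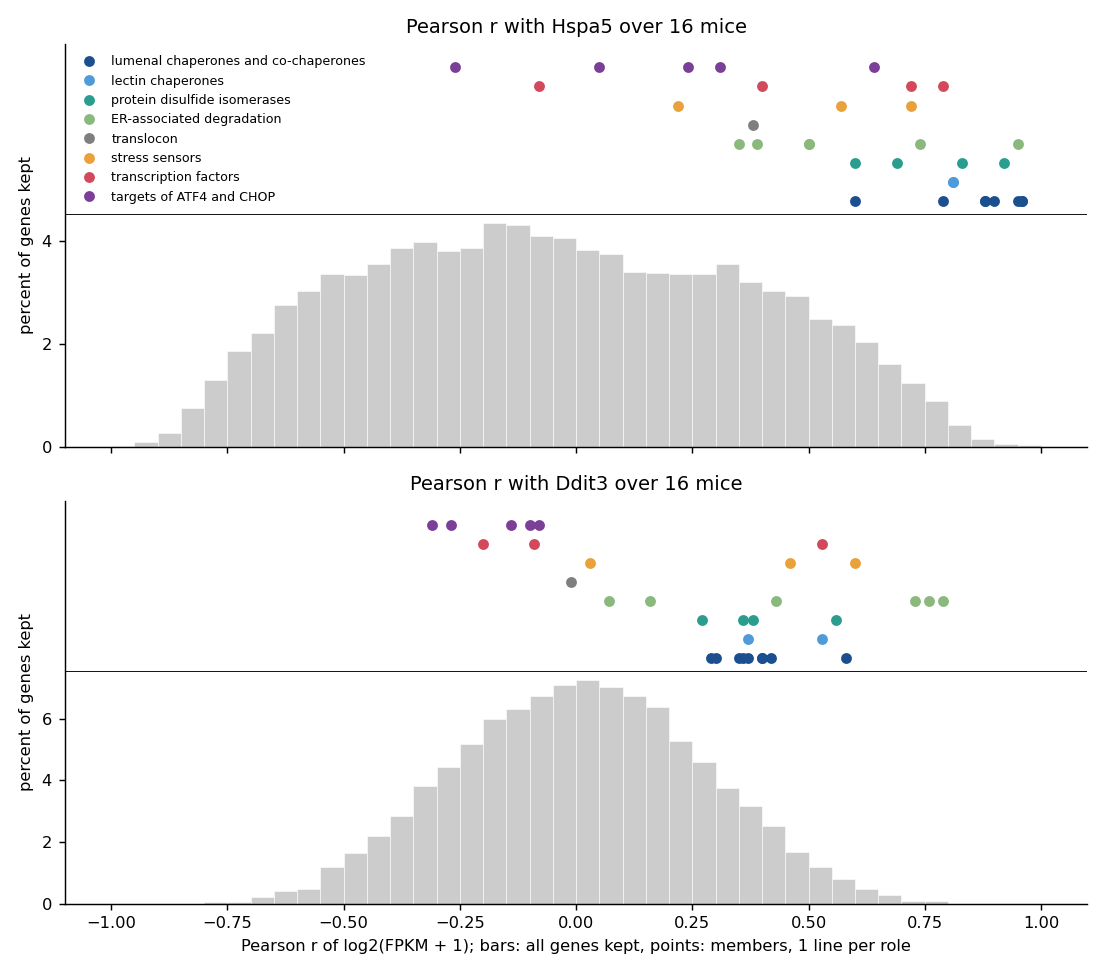
Pearson r of log2(FPKM + 1) with Hspa5 (top) and with Ddit3 (bottom) over 16 mice. Grey bars give the percent of all genes kept in each interval of r and points the 34 genes without the anchor, 1 line per role, with the lumenal chaperones at 0.60 to 0.96 with Hspa5 and 0.29 to 0.58 with Ddit3.

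The genes with an ERSE in the promoters shown above had a median r with Hspa5 of 0.84 (8 genes besides Hspa5, from 0.39 for Derl3 to 0.96 for Hsp90b1), and 7 of the 8 passed the adjusted test. The 22 members with a promoter and no ERSE in it had a median r of 0.58, and 8 of 22 passed. These 22 include the 5 targets of ATF4 and CHOP (median r 0.24) and the ERSE-II genes Dnajb11 (0.90) and Herpud1 (0.50). Manf (0.88) and Hyou1 (0.95) had no promoter here and are in neither group. The groups thus differ in role as well, and the part of the ERSE in r was not tested. Outside the members 11 measured genes held an ERSE. Their median r was 0.19, and 1 passed, Ero1b (r = 0.71), an oxidase that recharges the disulfide isomerases. Of the 10212 other genes without an ERSE 376 passed with r above 0 (3.68%), and their median r was -0.07. The median log2 fold change between genotypes was 0.24 for the 8 genes with ERSE and 0.18 for the 22 without.

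Correlation with Ddit3 gave a different picture. With the same test over 12769 relations, 0 of 33 members and 0 genes passed in either direction (0% for r above 0 and 0% for r below 0), and Spearman rho gave 0 of 33 as well. At an unadjusted p under 0.05 the count of members with r below 0 was 0, against 2.55% of all genes, and 8 of 33 members had r above 0, against 3.05% of all genes: Atf3, Pdia4, Canx, Edem1, Sel1l, Atf6, Dnajb9 and Herpud1. Of the 6 degradation genes 3 were among these 8, while Syvn1 (r = 0.43), Selenos (0.16) and Derl3 (0.07) were not. Sel1l had r = 0.79 and rho = 0.63 (permutation p = 0.00038 and 0.0102, adjusted p = 0.533 and 0.985) and was the gene with rank 2 of all 12769. Edem1 had r = 0.76 and rho = 0.70 (permutation p = 0.00071 and 0.00306, adjusted p = 0.533 and 0.985) at rank 9. Herpud1 had r = 0.73 and rho = 0.68 (permutation p = 0.00094 and 0.00534, adjusted p = 0.533 and 0.985) at rank 17. Without the 2 mice farthest from the median of Ddit3, r was 0.68 for Sel1l, 0.66 for Edem1 and 0.62 for Herpud1, but 0.42 for Pdia4, 0.31 for Canx and 0.30 for Atf3. There 6 members had an unadjusted p under 0.05 with r above 0 (2.63% of genes): Edem1, Sel1l, Atf6, Dnajb9, Herpud1 and Eif2ak3. By rho there were 4 (2.33% of genes): Edem1, Sel1l, Dnajb9 and Herpud1. Among the factors and their targets, r with Ddit3 was -0.20 for Atf4, -0.09 for Xbp1, -0.08 for Chac1, -0.27 for Trib3, -0.10 for Ppp1r15a and -0.14 for Sesn2. Both Ern1 (0.03) and Sec61b (-0.01) were near 0. Centred on genotype and run, r with Ddit3 was -0.72 for Sesn2 and -0.48 for Trib3 (adjusted p = 0.484 and 0.672 by the t test). With each mouse left out in turn, r ran from -0.27 to -0.03 for Sesn2 and from -0.43 to -0.16 for Trib3.

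Outside the members, the 5 genes with the highest r with Hspa5 were Hsp90aa1 (0.95), Morf4l2 (0.92), Stip1 (0.91), Hsp90ab1 (0.91) and Sfpq (0.90), each with an adjusted p of 0.00284. Hsp90aa1 and Hsp90ab1 encode the cytosolic Hsp90 proteins and Stip1 their co-chaperone. Their rho was 0.92, 0.86 and 0.92, and their r without LKO replicates 2 and 8 was 0.91, 0.84 and 0.89. Hsp90aa1 was at 44.8 to 92.2 FPKM in WT and 36.5 to 172 FPKM in LKO, with 5 LKO mice above the highest and 2 below the lowest WT mouse, as for Hspa5. The lowest r of all genes was that of Xpa, a DNA repair gene named after its values were seen, at -0.96 (rho = -0.96, and -0.94 without the 2 mice). Xpa was at 11.4 to 16.7 FPKM in WT and 9.05 to 15.6 FPKM in LKO. With Ddit3 the highest outside the members were Cxcl2 (0.81), Ptch1 (0.78), Hspa1b (0.77), Hspa2 (0.77) and Mtrr (0.76), each with an adjusted p of 0.533, and Cxcl2 was near the floor with a mean of 0.156 FPKM. Hspa5 also followed the broadest variation in the table: its absolute r with the first principal component, which held 28.0% of the variance, was 0.76, and that of Ddit3 was 0.08, both given as description.

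The rest of the pathway was read from lists of other genes, of which 0 passed the adjusted limma test between genotypes. Of 16 cytosolic and mitochondrial heat shock genes 10 passed with r above 0 with Hspa5, with a median r of 0.71, against 3.77% of all genes with r above 0. Of 24 other ER folding and redox genes 4 passed (Uggt1, r = 0.84, Hspa13, 0.71, Ero1b and Pdia5), and of 21 other degradation genes 3 (Ubxn4, r = 0.77, Ube2g2, 0.76, and Nploc4). Of 21 genes of translocation and signal peptide removal 4 passed (Ssr3, r = 0.82, Srprb, 0.73, Sec61a1 and Spcs2), and of 21 genes of transport from ER to Golgi 4 (Kdelr2, r = 0.84, Sec23b, 0.78, Sec24d and Sec31a). Among 20 other sensors, proteases and stress kinases 1 passed (Creb3l2, r = 0.72). Of 32 other targets of ATF4 and CHOP 7 passed with r above 0, led by the aminoacyl-tRNA synthetase genes Wars (0.80) and Iars (0.79). Another 2 passed with r below 0, Cth and Shmt2, against 5.70% of all genes. At an unadjusted p under 0.05 there were 15 of these 32 with r above 0, against 11.4% of all genes, and 4 with r below 0, against 15.9%. The median r of the 32 was 0.42. The Pearson r in these lists were read by the same permutation test over 12769 relations. With Ddit3 0 genes of these lists passed the adjusted permutation test, and at an unadjusted p under 0.05 with r above 0 there were 7 of 16 heat shock genes, 3 of 24 in folding and redox, 2 of 21 in degradation, 3 of 21 in transport to the Golgi, 0 of 21 in translocation, 0 of 20 other sensors and 0 of 32 other targets, against 3.05% of all genes. With r below 0 there was 1 in degradation and 1 in translocation, against 2.55% of all genes.

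Between genotypes 7.01% of all genes had an unadjusted limma p under 0.05. In these lists there were 5 of 21 in transport from ER to Golgi (Sec24b, Sec24c, Sec24d, Sec16a and Lman2), 4 of 32 among the other targets of ATF4 and CHOP (Slc7a1, Nupr1, Wars and Atf5), 2 of 16 heat shock genes (Hspb1 and Hspe1), 1 of 21 other degradation genes (Nploc4) and 1 of 20 other sensors (Eif2ak2). There were 0 of 24 in ER folding and redox and 0 of 21 in translocation, by limma. The median log2 fold change was 0.27 for the heat shock genes and from 0.03 to 0.08 for the other 6 lists.

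Lists of liver state and of cell types were set beside these values. None of 11 acute phase genes and none of 20 feeding and clock genes passed with Hspa5 (0 of 11 and 0 of 20 by the permutation test on r, with highest r of 0.43 for Itih4 and 0.58 for Igfbp1). At an unadjusted p under 0.05 there were 0 of 11 and 3 of 20, with r above 0 for 1 of the 3. Of all genes 11.4% had such a p with r above 0 and 15.9% with r below 0. After adjustment these shares were 3.77% and 5.70%. Of these state genes only Fgl1 itself had an unadjusted limma p under 0.05 between genotypes. Of 8 hepatocyte markers 1 passed with Hspa5, the factor Hnf4a (r = 0.75), and the sum of the 8 had r = -0.44 with Hspa5. Of 5 cholangiocyte markers Krt19 passed (r = 0.68). These 5 summed to 24.7 to 56.1 FPKM in WT and 28.9 to 262 FPKM in LKO, with the highest sum in LKO replicate 8, and their most abundant gene was Spp1 at a mean of 58.1 FPKM. The sum had r = 0.66 with Hspa5, and its part in the chaperone values was not tested. The r of summed markers are description, with no test.

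Of the markers of plasma and B cells (5 kept), pancreatic acinar cells (2 kept), Kupffer cells and macrophages (8), neutrophils (4), endothelium (6) and stellate cells (6), 0 passed with Hspa5 by the permutation test on r. At an unadjusted p under 0.05 these lists gave, in the same order, 0, 0, 2, 3, 0 and 0 genes with r above 0, against 11.4% of all genes, and 1, 0, 0, 0, 0 and 0 with r below 0, against 15.9% of all genes. Between genotypes 4 of these had an unadjusted limma p under 0.05, against 7.01% of all genes, and 0 an adjusted one. The 4 are Adgre1 and Vsig4 of the macrophage list, Cd79b and Cela2a. The macrophage markers summed to 63.9 to 135 FPKM in WT and 81.2 to 172 FPKM in LKO, the neutrophil markers to 0.93 to 33.7 FPKM in WT and 3.03 to 26.8 FPKM in LKO. The pancreatic markers, nearly all of it Cela1 with a mean of 15.3 FPKM, summed to 11.5 to 28.2 FPKM in WT and 12.6 to 17.0 FPKM in LKO. The endothelial markers, with Clec4g the most abundant, summed to 24.9 to 95.6 FPKM over all mice and the stellate cell markers, led by Dcn, to 45.3 to 113 FPKM. The sums of the macrophage and neutrophil markers had r = 0.44 and 0.56 with Hspa5, and their part in the values of the 34 genes was not tested.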

How the data were processed

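The authors deposited 1 FPKM value per gene and mouse, with 2 decimals. Reads (paired-end, DNBSEQ) were aligned by the authors with HISAT to mm39 and with Bowtie2 to the reference genes. Versions, annotation and the counting step are not given in the sources used here. Read numbers are unknown, so no counting error is given. After the filter at 0.1 FPKM, log2(FPKM + 1) was tested with limma 3.58.1 in R 4.3.3 (trend, two-sided, Benjamini-Hochberg), beside an exact permutation test that went through all 12870 ways to divide the mice. Correlations used Pearson r and Spearman rho with 100000 permutations, and a t test of partial r for centred values. The steps were tested on simulated data. Alternatives changed the pseudocount, filter, scaling, run, block, trend, test and mice. The members and lists were chosen with earlier results of these data known. Of 254 listed other genes 247 were in the table, 11 of them under another symbol. Symbols that had become dates were read by gene id. Members named in full were Hspa5, Ddit3, Xbp1, Atf4 and Chac1, in each role group those with the highest mean and the largest absolute log2 fold change, and the 3 with the smallest limma p. Genes outside were the 5 with the highest r with each anchor and the 2 highest of each list. A search of protein ends was not run, since no protein table was at hand.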

Additional observations from a re-analysis of the deposited data

Results flagged for a closer look

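In 70 groups of 8 mice (34 members and Fgl1 in each genotype), the lowest or highest mouse stood apart from the others in 1. Ppp1r15a was at 4.1 FPKM in WT replicate 7, while the other 7 WT mice were at 5.64 to 6.73 FPKM, a gap of 0.635 of the whole range on log2(FPKM + 1). Chance gives about 1 in 20 groups of this kind, so that this value alone is no pattern.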

How the results depend on the processing

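The call of 0 members between genotypes was the same under every alternative run, and 0 genes became 1 gene, Fgl1, with the run term (1), without the run of mice 36 to 38 (1) and with the replicate block (1). The exact permutation test for these counts was chosen after seeing the data. Neither it nor the exact rank-sum test could reach an adjusted call here, so their 0 is no sign of stability. Members with a log2 fold change above 0 numbered 32, with 29 under the run term, 28 without the run of mice 36 to 38 and 29 to 32 when each mouse was left out. The median log2 fold change of the named members was then 0.17 to 0.27.

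Of 425 recomputed log2 fold changes of single genes 14 turned sign, and 3, all of Fgl1, passed the threshold. With the run term the log2 fold change was 0.02 for Atf4, -0.40 for Chac1 and -0.08 for Sec61b. Without the run of mice 36 to 38 it was -0.38 for Chac1 and -0.06 for Sec61b. Leaving out each mouse gave -0.10 to 0.20 for Chac1, -0.04 to 0.07 for Ppp1r15a and -0.01 to 0.08 for Sec61b.

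Members correlated with Hspa5 numbered 17, and 8 without the 2 mice farthest from its median, where fewer mice were tested. They numbered 13 (without LKO replicate 8) to 18 when each mouse was left out. Centred on genotype they numbered 16 by permutation and 13 by the t test, and centred on genotype and run 23 and 18. Permuting centred values gives p that are too small, so the centred calls are those of the t test, which was chosen after seeing the data. With Ddit3 the number stayed 0 under every alternative. Of 1079 recomputed r, 33 turned sign, 36 lost their call and 5 gained one, and the values that turned sign lay between -0.20 and 0.05 over all mice. The r with Hspa5 was 0.19 for Atf4 centred on genotype and run. For Sesn2 it was -0.13 without the 2 farthest mice, -0.16 centred on genotype and -0.21 centred on genotype and run. Leaving out each mouse gave -0.29 to 0.07 for Atf4 and -0.03 to 0.14 for Sesn2.

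The r with Ddit3 without its 2 farthest mice was 0.13 for Atf4, 0.06 for Chac1, 0.02 for Ppp1r15a, -0.06 for Ern1 and 0.23 for Sec61b. As Spearman rho it was -0.01 for Ern1 and 0.06 for Sec61b. Median-ratio scaling gave 0.02 for Sec61b, and centring on genotype gave -0.21 for Ern1. Centring on genotype and run gave 0.18 for Atf4 and -0.20 for Ern1. Leaving out each mouse gave -0.19 to 0.03 for Xbp1, -0.39 to 0.00 for Atf4, -0.16 to 0.12 for Chac1, -0.41 to 0.02 for Ppp1r15a, -0.14 to 0.16 for Ern1 and -0.13 to 0.24 for Sec61b. For these sign changes the cause was not tested.

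WT and LKO mice share replicate numbers, and the number as a block moved the genes called from 0 to 1 and the members called from 0 to 0. Of 8 same-number pairs 3 correlated above 0.1 (from -0.16 to 0.45) in their deviations from the group means, and 3 of 16 mice correlated best with their own number, so the numbers were not taken as pairs. Limits are the unknown depth, the run with WT mice only, FPKM scaled within each library, genes that share exon bases, and whole liver as the tissue.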
